A study of Mus musculus with 9 samples.

Results

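Tumour necrosis factor (TNF), its receptors and the related death receptors were examined in mouse brain after transient occlusion of the middle cerebral artery. The genes were chosen by name, with earlier results of these data known. They are the ligands Tnf and Tnfsf12, the receptors Tnfrsf1a, Tnfrsf1b, Tnfrsf12a, Ltbr, Fas, Tnfrsf10b and Ngfr, and the intracellular inhibitor Tnfaip3. Every non-control probe whose RefSeq accession mapped to these 10 genes was taken, which gave 12 of the 55681 non-control probes on the array. All 10 genes were among the 30836 tested, and each of the 12 probes exceeded background clearly on all 9 arrays.

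TNF is a cytokine made by activated microglia and by macrophages, and in the ischaemic brain it is known as an early inflammatory signal. Its receptors fall into a group with an intracellular death domain, which can start cell death as well as NF-kappaB signalling, and a group without one, which recruits TRAF adaptor proteins. NF-kappaB in turn switches on inflammatory genes and also Tnfaip3, a ubiquitin-editing enzyme that shuts the pathway down again.

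All mice were adult male C57BL/6 animals of 50 to 53 days. In VEGF mice the artery was closed for 90 min, and 1 µl of rhVEGF-A165 (10 µg/ml), a recombinant human growth factor of blood vessels, was injected into the right lateral ventricle 3 h after blood flow returned. MCAO mice went through the same occlusion and were injected with 1 µl of the saline vehicle instead. Sham mice had sham surgery, and no injection is stated for them. Brains were taken 24 h after reperfusion, 21 h after the injection, with 3 arrays from different mice in each group. The labels do not name the brain region, so infarcted and intact tissue may be mixed in unknown shares. Levels below are log2 processed signals relative to each array's 75th percentile, and they can be compared between arrays for 1 probe but not between probes.

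The scanner signal at the 75th percentile was 723 to 1770, and 73.0% to 81.8% of spots were well above background. As a check of the brain label, each of 8 neuron markers exceeded background clearly on the 9 arrays. The 3 sham arrays shared 1 slide and the 6 ischaemic arrays a different one, so slide, injection and ischaemia cannot be told apart in any comparison with sham. MCAO array 1 was the only array scanned on another day and the only one processed without the spatial detrending step. MCAO array 1 and VEGF array 1 stood apart: the median of the neuron markers lay at -2.44 and -2.33 log2 units relative to sham there, compared with -0.86 to -0.45 on the remaining 4 of MCAO and VEGF mice. Fewer cells of a type and less RNA per cell cannot be told apart in such bulk samples.

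In VEGF against sham, 6 of the 10 genes were higher at an adjusted p under 0.05 (Tnf, Tnfrsf1a, Tnfrsf1b, Tnfrsf12a, Ltbr and Fas) and 0 were lower (limma, with 8 higher and 1 lower at an unadjusted p under 0.05). The same 6 genes were higher in MCAO against sham, and again 0 were lower (8 and 1 at an unadjusted p under 0.05). At that unadjusted threshold 12% of all genes were higher and 11.4% lower in VEGF against sham, and 12.1% higher and 9.28% lower in MCAO against sham. Of all genes tested, 2.43% were called in VEGF against sham (2.07% higher and 0.357% lower) and 2.81% in MCAO against sham (2.28% higher and 0.535% lower). In VEGF against MCAO, 0 of the 10 passed, with 0 at an unadjusted p under 0.05, where 0.00649% of all genes were called and 2.78% had an unadjusted p under 0.05. The median difference of the 10 genes was 2.58 log2 units in VEGF against sham and 2.60 in MCAO against sham, beside -0.12 and -0.044 over all genes tested. The comparisons with sham share the 3 sham arrays, so their likeness is not independent. For 9 of the 10 genes the VEGF and sham arrays did not overlap (8 higher, 1 lower), and likewise for the MCAO and sham arrays, but 42.1% (18.2% higher and 23.9% lower) and 40.3% (19.6% higher and 20.7% lower) of all genes also did not overlap.

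**Figure D1:**
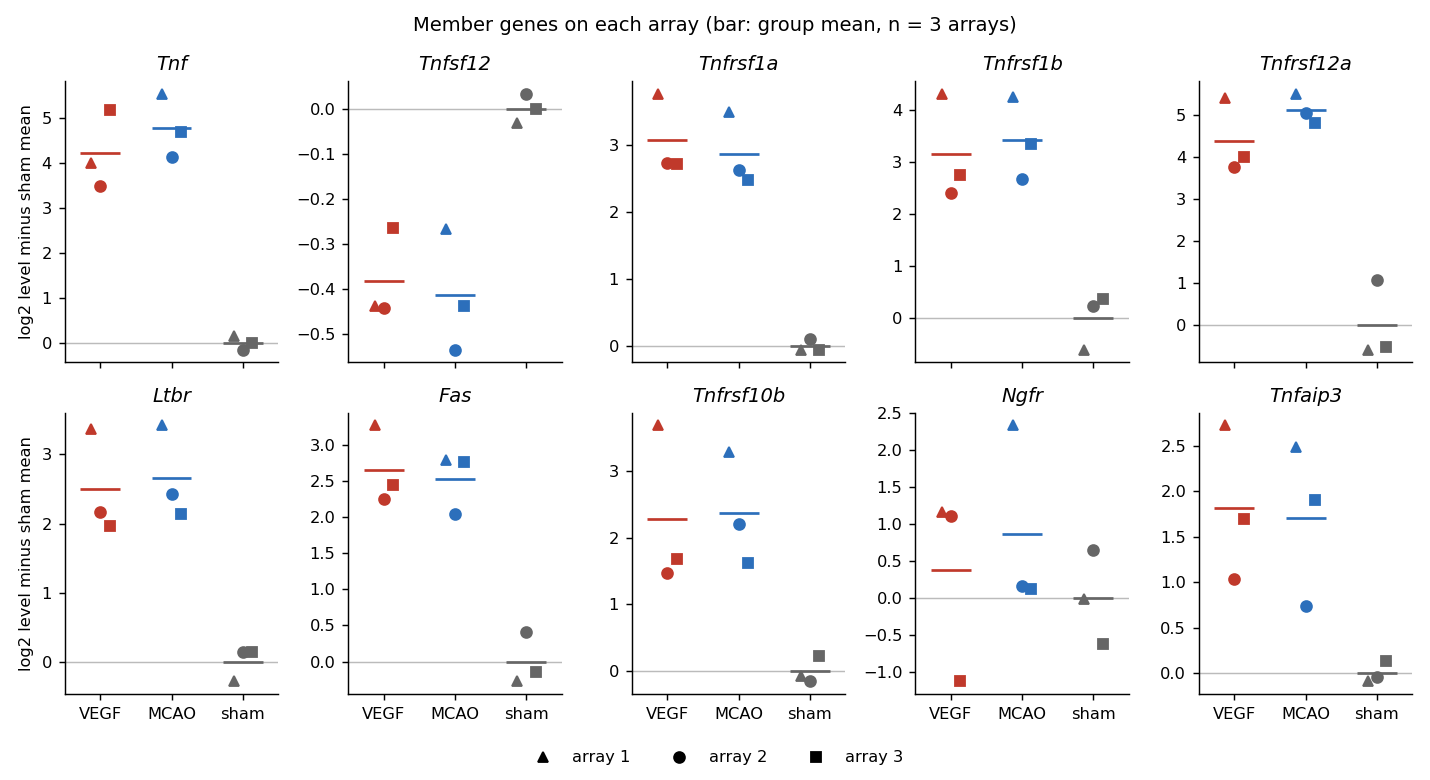
Each panel plots the log2 level of 1 gene on the 9 arrays minus the mean of the 3 sham arrays, with a bar at the group mean. The symbols mark arrays 1, 2 and 3 of a group. Ngfr is the only panel in which ischaemic and sham arrays overlap, and VEGF array 1 and MCAO array 1 are above the other 4 ischaemic arrays in 8 of the 10 panels.

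Tnf, the founding ligand of the family, read -1.60, -2.10 and -0.41 on VEGF arrays 1 to 3, -0.056, -1.47 and -0.91 on MCAO arrays 1 to 3, and -5.46, -5.75 and -5.60 on sham arrays 1 to 3. Every ischaemic array lay far above every sham array, and the VEGF and MCAO arrays were interleaved. Tnf was 18.8-fold higher in VEGF than in sham (95% interval 8.89 to 39.7, log2 difference 4.23 ± 0.47 SE, adjusted p = 0.00405). It was 27.7-fold higher in MCAO than in sham (13.1 to 58.6, log2 difference 4.79 ± 0.47, adjusted p = 0.00215). Only 0.47% of genes had a larger difference in VEGF against sham and 0.399% in MCAO against sham. The Tnf call held in 9 of 9 fits with 1 array left out in both comparisons. The size depends on how the dim sham signal is treated: processed Tnf signals averaged 238 to 991 on VEGF arrays and 639 to 909 on MCAO arrays, but 25.1 to 29.4 on sham arrays. With normexp background correction, which lifts dim signals, the differences were 2.69 (adjusted p = 0.0172) and 3.14 (adjusted p = 0.00833) log2 units.

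The promoter of Tnf is shown with those of Tnfaip3 and Fas, because NF-kappaB and AP-1 are known as factors through which TNF receptors act on genes. The window runs from 250 bases before to 50 bases after the start site of the RefSeq promoter entry on GRCm38.p6, 5′ to 3′ on the gene's strand. Capitals mark motif matches. The Tnf window is chr17:35201958-35202257 (minus strand), the Tnfaip3 window chr10:19015361-19015660 (minus strand) and the Fas window chr19:34290409-34290708 (plus strand).
Tnf: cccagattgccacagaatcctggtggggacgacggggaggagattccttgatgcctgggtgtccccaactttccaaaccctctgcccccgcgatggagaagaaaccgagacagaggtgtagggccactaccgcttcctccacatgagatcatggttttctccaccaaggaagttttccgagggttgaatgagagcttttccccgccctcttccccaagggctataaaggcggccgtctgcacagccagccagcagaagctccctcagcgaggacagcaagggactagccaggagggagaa
Tnfaip3: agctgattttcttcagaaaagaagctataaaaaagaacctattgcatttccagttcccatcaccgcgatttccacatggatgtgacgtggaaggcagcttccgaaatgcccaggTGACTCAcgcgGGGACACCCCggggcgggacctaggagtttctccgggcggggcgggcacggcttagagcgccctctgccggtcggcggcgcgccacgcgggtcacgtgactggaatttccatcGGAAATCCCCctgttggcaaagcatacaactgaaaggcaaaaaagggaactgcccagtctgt
Fas: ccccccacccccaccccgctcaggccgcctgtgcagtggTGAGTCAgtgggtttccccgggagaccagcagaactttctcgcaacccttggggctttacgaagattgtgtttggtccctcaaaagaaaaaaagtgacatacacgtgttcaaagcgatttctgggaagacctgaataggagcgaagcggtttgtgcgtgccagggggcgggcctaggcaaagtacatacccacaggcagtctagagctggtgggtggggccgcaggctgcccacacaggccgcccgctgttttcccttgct
Of the 8 genes with an entry (9 windows, 2 of them of Tnfaip3), only Tnfaip3 had a match to the NF-kappaB consensus, and only Tnfaip3 and Fas had one to the AP-1 motif TGANTCA, on either strand. Tnfsf12 and Tnfrsf10b had no entry. The Tnfaip3 window holds GGGACACCCC starting 125 bases before the gene's start and GGAAATCCCC starting 12 bases before it, plus TGACTCA starting 136 bases before it, none of them overlapping. The Fas window holds TGAGTCA starting 211 bases before the start site of its entry, which is not the outer start of the gene (chr19:34290647). Among all 32851 promoter windows of this length, 8.46% held the NF-kappaB motif and 7.81% the AP-1 motif. A match is a run of letters and not a measured binding site.

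Tnfsf12 encodes TWEAK, the ligand of the receptor Tnfrsf12a. Its brighter probe read 0.52, 0.52 and 0.70 on VEGF arrays, 0.69, 0.43 and 0.52 on MCAO arrays, and 0.93, 0.99 and 0.96 on sham arrays. All 6 ischaemic arrays lay below all 3 sham arrays, by a small margin. The difference did not pass the test in VEGF against sham (fold 0.767, 95% interval 0.591 to 0.997, adjusted p = 0.21) or in MCAO against sham (fold 0.751, 0.578 to 0.976, adjusted p = 0.204). Without MCAO array 1 and VEGF array 1 it passed in MCAO against sham (log2 difference -0.49, adjusted p = 0.0334). The other probe of Tnfsf12 read -1.04, -2.72 and -3.22 on VEGF arrays, -1.64, -2.58 and -2.77 on MCAO arrays, and -1.99, -2.46 and -2.54 on sham arrays, so its groups overlapped. The gene lies inside Tnfsfm13, a joined transcript unit with Tnfsf13, and which transcripts each probe matches was not checked.

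Tnfrsf12a, the TWEAK receptor, had with Tnf the largest differences from sham of the 10 genes. It read 4.19, 2.54 and 2.77 on VEGF arrays, 4.28, 3.83 and 3.58 on MCAO arrays, and -1.80, -0.15 and -1.73 on sham arrays. The groups against sham were far apart although sham array 2 was clearly above the other sham arrays. Among the ischaemic arrays, VEGF arrays 2 and 3 were the lowest. Tnfrsf12a was 21.0-fold higher in VEGF than in sham (95% interval 8.78 to 50.4, log2 difference 4.39 ± 0.55, adjusted p = 0.00696). It was 34.8-fold higher in MCAO than in sham (14.5 to 83.5, log2 difference 5.12 ± 0.55, adjusted p = 0.00305). The call in VEGF against sham was lost without sham array 1, at a log2 difference of 4.11 and an adjusted p of 0.0503, and held in the 8 other fits with 1 array left out. The MCAO call held in 9 of 9. In VEGF against sham the difference of Tnfrsf12a was above that of Tnf with all arrays, by less than either SE, and below it without VEGF array 1 and MCAO array 1 (3.88 for Tnfrsf12a and 4.35 for Tnf). Of this ligand and receptor, then, only the receptor passed the test.

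Tnfrsf1b encodes the TNF receptor without a death domain, which immune and endothelial cells carry. It read -0.35, -2.25 and -1.91 on VEGF arrays, -0.40, -1.99 and -1.31 on MCAO arrays, and -5.26, -4.42 and -4.28 on sham arrays. The ischaemic arrays were all above the sham arrays, with array 1 of each ischaemic group the highest. Tnfrsf1b was 8.89-fold higher in VEGF than in sham (log2 difference 3.15 ± 0.57, adjusted p = 0.0287) and rose by 3.42 ± 0.57 log2 units in MCAO against sham (95% interval of the fold 4.34 to 26.5, adjusted p = 0.0195). Of the 6 genes that rose it had the least stable call, which held in 4 of 9 fits with 1 array left out for VEGF against sham and in 5 of 9 for MCAO against sham. The adjusted p was 0.143, 0.0978 and 0.0937 without sham arrays 1, 2 and 3 in VEGF against sham, and 0.107, 0.0725 and 0.0713 in MCAO against sham. The call was also lost without MCAO array 3 (0.0539 for VEGF and 0.0658 for MCAO) and, for VEGF, without VEGF array 3 (0.0512). Processed signals of its single spot were low on sham arrays, at 32.6, 62.5 and 68.8, so the size depends on how they are treated. With normexp background correction the difference was 2.25 in VEGF against sham (adjusted p = 0.0618) and 2.46 in MCAO against sham (adjusted p = 0.0401).

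Ltbr, the lymphotoxin beta receptor, also lacks a death domain and is known for driving the non-canonical NF-kappaB route. Its levels were 3.02, 1.82 and 1.62 on VEGF arrays, 3.08, 2.08 and 1.79 on MCAO arrays, and -0.62, -0.20 and -0.21 on sham arrays. No ischaemic array came near the sham arrays, and array 1 was again the highest of its ischaemic group. Ltbr was 5.65-fold higher in VEGF than in sham (log2 difference 2.50 ± 0.44, adjusted p = 0.0247) and 6.32-fold higher in MCAO than in sham (2.66 ± 0.44, adjusted p = 0.0187). Both calls were lost without any 1 of the sham arrays: without sham arrays 1, 2 and 3 the adjusted p was 0.131, 0.0938 and 0.099 for VEGF and 0.106, 0.073 and 0.0804 for MCAO.

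Tnfrsf1a, the death domain receptor of TNF that most cell types carry, read 4.58, 3.55 and 3.52 on VEGF arrays, 4.31, 3.44 and 3.29 on MCAO arrays, and 0.76, 0.92 and 0.76 on sham arrays. The 3 sham arrays agreed closely, and array 1 was the highest in both ischaemic groups. Tnfrsf1a was 8.41-fold higher in VEGF than in sham (95% interval 4.77 to 14.8, log2 difference 3.07 ± 0.36, adjusted p = 0.00499). It was 7.31-fold higher in MCAO than in sham (4.14 to 12.9, log2 difference 2.87 ± 0.36, adjusted p = 0.00626). Both calls held in 9 of 9 fits with 1 array left out. The other probe of Tnfrsf1a had a lower mean over the 9 arrays but was not dimmer on sham arrays (sham mean 0.92, beside 0.81). It gave smaller differences with each of 43920 probes tested on its own, where 1.97% and 2.25% were called: 1.97 ± 0.41 (adjusted p = 0.0512) in VEGF against sham and 1.59 ± 0.41 (adjusted p = 0.0872) in MCAO against sham. On that probe the levels were 3.72, 2.55 and 2.40 on VEGF arrays, 3.11, 2.40 and 2.03 on MCAO arrays, and 1.20, 0.96 and 0.61 on sham arrays, which do not overlap. The mean of both probes was called in both comparisons, at 2.52 (adjusted p = 0.0132) and 2.23 (adjusted p = 0.02) log2 units.

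**Figure D2:**
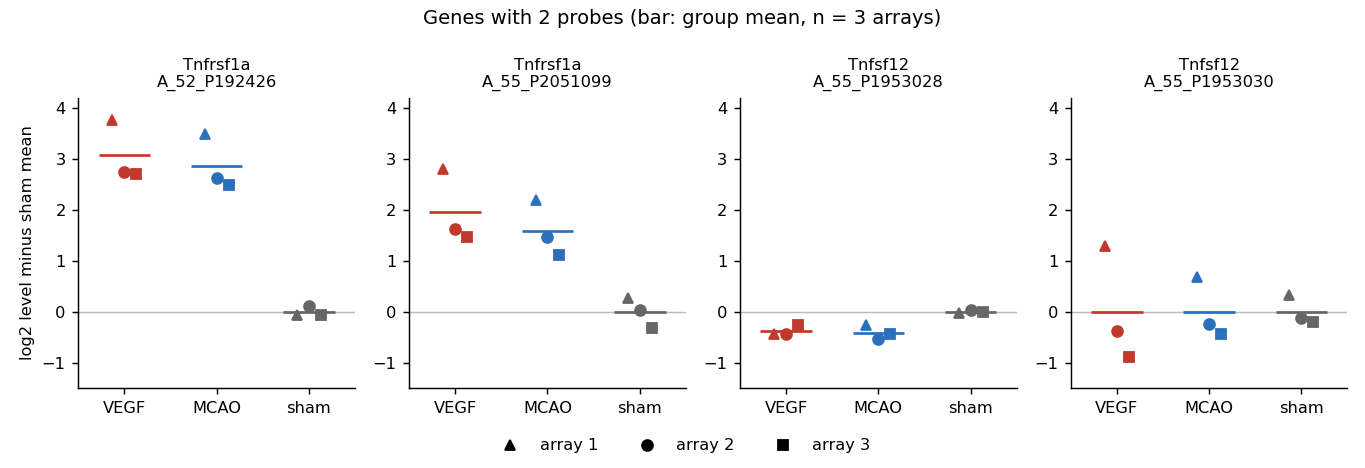
Log2 levels minus the sham mean are plotted for both probes of Tnfrsf1a and both probes of Tnfsf12 on the same scale, with a bar at the mean of 3 arrays. Both Tnfrsf1a probes separate the ischaemic arrays from sham, by 2.87 to 3.07 log2 units on 1 and 1.59 to 1.97 on the other, whereas the Tnfsf12 probes differ in whether the groups overlap.

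Fas, the receptor of Fas ligand and the classic starter of death receptor apoptosis, read 0.85, -0.17 and 0.022 on VEGF arrays, 0.38, -0.37 and 0.34 on MCAO arrays, and -2.69, -2.01 and -2.56 on sham arrays. The 6 ischaemic arrays formed a narrow band well above sham. Fas was 6.29-fold higher in VEGF than in sham (95% interval 3.65 to 10.8, log2 difference 2.65 ± 0.34, adjusted p = 0.00794). It was 5.80-fold higher in MCAO than in sham (3.37 to 9.98, log2 difference 2.54 ± 0.34, adjusted p = 0.00868). The calls were lost without sham array 1 (adjusted p 0.0575 for VEGF and 0.0587 for MCAO) and without sham array 3 (0.0525 and 0.0513). The differences themselves stayed between 2.34 and 2.86 for VEGF and between 2.40 and 2.78 for MCAO in the 9 fits with 1 array left out.

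Tnfrsf10b encodes the death domain receptor for TRAIL. It read 0.97, -1.24 and -1.02 on VEGF arrays, 0.58, -0.50 and -1.08 on MCAO arrays, and -2.78, -2.86 and -2.48 on sham arrays. The groups did not overlap with sham, but VEGF array 1 and MCAO array 1 stood well above the rest. Its differences, 2.28 ± 0.61 in VEGF against sham (adjusted p = 0.0952) and 2.37 ± 0.61 in MCAO against sham (adjusted p = 0.0817), did not pass. Without those 2 arrays they were smaller, 1.57 (adjusted p = 0.00792) and 1.92 (adjusted p = 0.00341), and passed.

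Tnfaip3, the NF-kappaB target that limits TNF signalling, read 1.62, -0.067 and 0.58 on VEGF arrays, 1.38, -0.37 and 0.80 on MCAO arrays, and -1.19, -1.15 and -0.97 on sham arrays. All ischaemic arrays were above all sham arrays, with arrays numbered 1 highest and arrays numbered 2 lowest in both ischaemic groups. The differences of 1.82 ± 0.51 in VEGF against sham (adjusted p = 0.105) and 1.71 ± 0.51 in MCAO against sham (adjusted p = 0.12) did not pass. Without VEGF array 1 and MCAO array 1 they were 1.36 (adjusted p = 0.045) and 1.32 (adjusted p = 0.0448).

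Ngfr, the neurotrophin receptor with a death domain, read 0.30, 0.25 and -1.98 on VEGF arrays, 1.47, -0.70 and -0.73 on MCAO arrays, and -0.87, -0.21 and -1.48 on sham arrays. It was the only gene of the 10 whose groups overlapped with sham in both comparisons: MCAO array 1 was the highest of all 9 arrays and VEGF array 3 the lowest. The fold was 1.30 in VEGF against sham (95% interval 0.38 to 4.44, adjusted p = 0.774) and 1.82 in MCAO against sham (0.534 to 6.24, adjusted p = 0.528). Without VEGF array 1 and MCAO array 1 the log2 differences were -0.0085 and 0.14. The spread lies between arrays and not between spots, since the 10 spots of the Ngfr probe on 1 array had an SD of 0.034 to 0.093 log2 units. The median of 5 choroid plexus markers, relative to sham, was -4.01, 1.23 and -4.80 on VEGF arrays, 2.09, -1.18 and -0.17 on MCAO arrays, and 0.55, 0.42 and -0.94 on sham arrays. MCAO array 1 was thus highest and VEGF array 3 lowest in both, while VEGF array 1 was high for Ngfr and low for the markers. All 5 markers were well above background on all 9 arrays, and their part in the Ngfr levels was not tested.

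**Figure D3:**
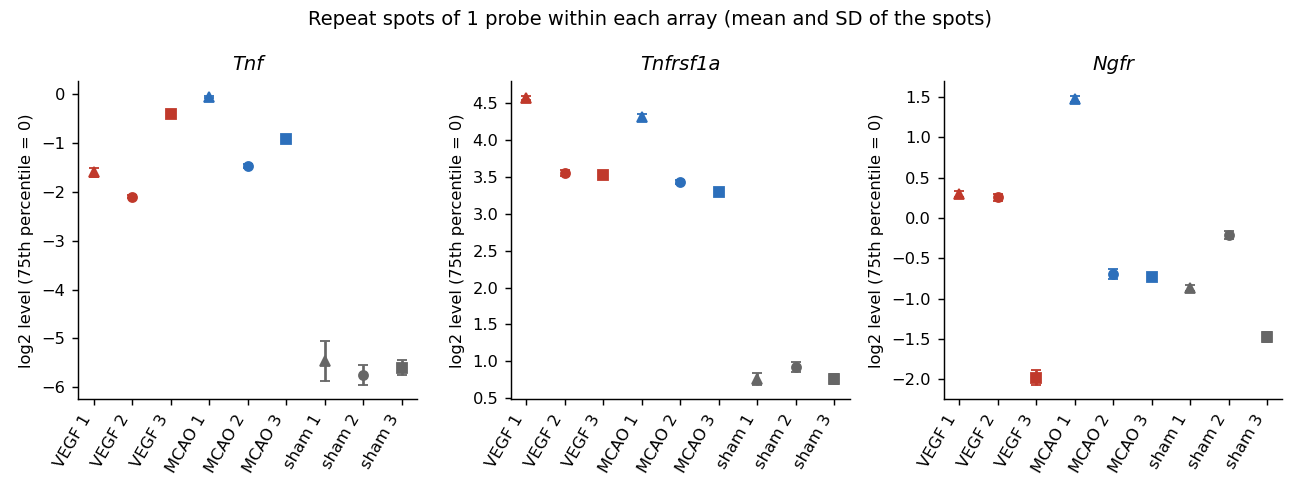
The mean level and the SD over the repeat spots of 1 probe are plotted for each array, for Tnf (8 to 10 spots), Tnfrsf1a (9 to 10 spots) and Ngfr (10 spots), on the log2 scale with the array's 75th percentile at 0. The bars are short beside the gaps between arrays, apart from the dim Tnf signal on sham arrays, where the SD is 0.15 to 0.41.

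VEGF and MCAO arrays were then compared with each other, which asks whether the injected factor moved these genes within the ischaemic brain. No gene passed, with adjusted p-values of 1.0 after rounding, and the arrays of the groups overlapped for all 10 genes, where 5.8% of all genes did not overlap. The widest gap was that of Tnfrsf12a, with a fold of 0.604 (95% interval 0.252 to 1.45). Tnf had a fold of 0.678 (0.321 to 1.43), Ngfr 0.712 (0.208 to 2.43), Tnfrsf1b 0.829 (0.335 to 2.05), Ltbr 0.894 (0.446 to 1.79) and Tnfrsf10b 0.936 (0.356 to 2.47). The fold was 1.02 for Tnfsf12 (0.787 to 1.33), 1.08 for Tnfaip3 (0.478 to 2.43), 1.09 for Fas (0.63 to 1.87) and 1.15 for Tnfrsf1a (0.652 to 2.03). The intervals leave room for a change of more than 2-fold in at least 1 direction for 8 of the 10 genes, so these arrays do not show that the groups are alike. VEGF and MCAO arrays shared the same slide. Single arrays moved the 2 widest gaps in either direction. With 1 array left out the log2 difference of Tnf, -0.56 with all arrays, ran from -1.04 (without VEGF array 3) to -0.18 (without MCAO array 1, the array of the other scan day). That of Tnfrsf12a, -0.73 with all arrays, ran from -1.24 (without VEGF array 1) to -0.42 (without VEGF array 2). Within the pairs of same-numbered arrays, 3 of the 10 genes kept 1 sign in all 3 pairs. VEGF minus MCAO was 0.27, 0.12 and 0.23 for Tnfrsf1a in pairs 1 to 3, -0.091, -1.28 and -0.81 for Tnfrsf12a, and -0.057, -0.26 and -0.17 for Ltbr. With the number as a block, 0 of the 10 genes had an unadjusted p under 0.05 in limma (lowest 0.211, for Tnf) and 0 passed after adjustment.

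**Figure D4:**
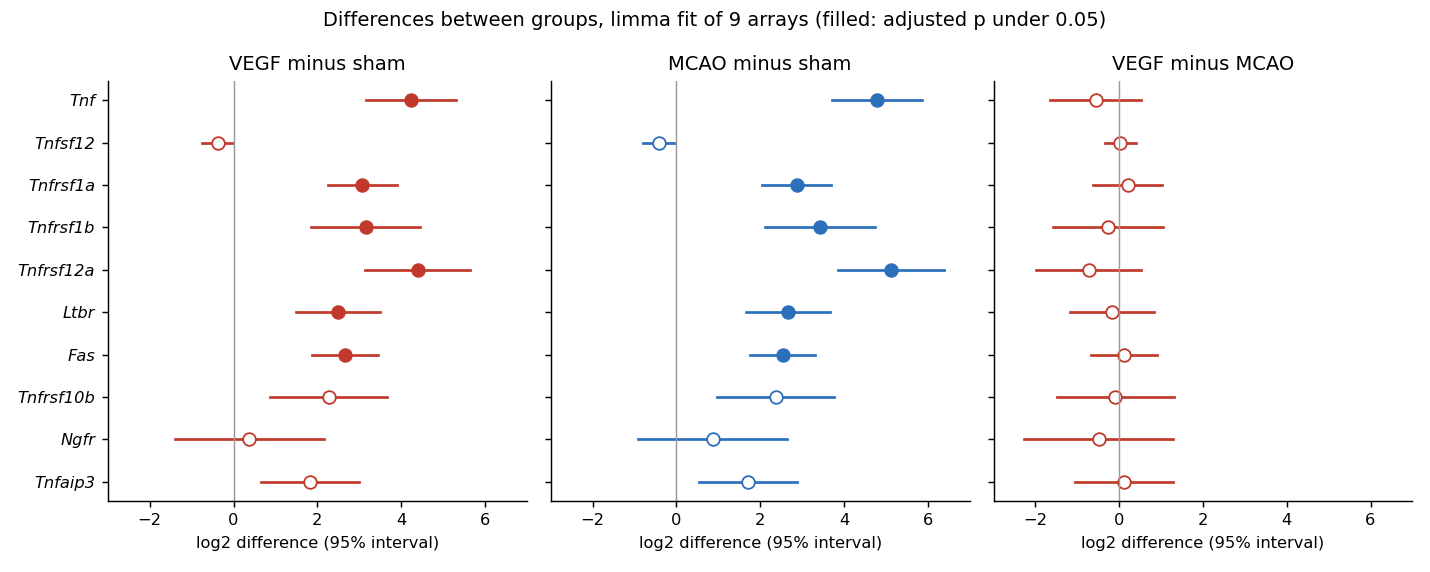
Log2 differences with 95% intervals from the limma fit are plotted for VEGF minus sham, MCAO minus sham and VEGF minus MCAO, with filled points at an adjusted p under 0.05. Points for 6 genes are filled in both comparisons with sham and for 0 genes in VEGF minus MCAO, where every interval spans 0.

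In 8 of the 10 genes VEGF array 1 and MCAO array 1 both lay above the other 4 ischaemic arrays, the exceptions being Tnf and Tnfsf12. These arrays also had the lowest scanner signal at the 75th percentile, 723 on VEGF array 1 and 797 on MCAO array 1. On the other 4 ischaemic arrays it was 1320 to 1770. Levels are relative to that percentile, and the part of this scaling in the higher levels was not tested. Without both, 8 of the 10 were called higher and 0 lower in VEGF against sham (limma), and 8 higher and 1 lower in MCAO against sham. The share of all genes called was then 20% in VEGF against sham (8.76% higher and 11.3% lower) and 22.8% in MCAO against sham (9.79% higher and 13% lower), so the larger count goes with more calls throughout. The same pair had the highest endothelial marker medians, 2.49 on VEGF array 1 and 1.80 on MCAO array 1, compared with 0.42 to 0.67 on the remaining 4. Of the 7 endothelial markers 0 passed the limma test in each comparison with sham, with 2 at an unadjusted p under 0.05, and their part in the levels of the 10 genes was not tested.

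Some markers of monocytes, macrophages and neutrophils were higher on the ischaemic arrays, and lymphocyte markers mostly were not. Of 6 monocyte and macrophage markers, 3 were called higher in each comparison with sham (Ccr2, Ms4a6d and Msr1). The median of the 3 that were well above background on all 9 arrays (Ms4a7, Ms4a6d and Mrc1), relative to sham, was 3.29, 2.46 and 0.63 on VEGF arrays, 3.16, 1.46 and 1.46 on MCAO arrays, and 0.0016 to 0.042 on sham arrays. Of 6 neutrophil markers, 3 were called higher in each (S100a8, S100a9 and Cxcr2). Csf3r differed by -0.17 in VEGF against sham and 0.19 in MCAO against sham, Mmp9 by 1.80 and 1.55, and Ngp by 0.81 and -0.19. None of these passed (limma, adjusted p 0.0854 to 0.92). The median of the 4 measured on all 9 arrays (S100a8, S100a9, Csf3r and Mmp9) was 4.78, 2.75 and 4.09 on VEGF arrays, 4.70, 2.53 and 4.13 on MCAO arrays, and -0.60 to 0.57 on sham arrays. Of 6 T and B lymphocyte markers only Cd3d was called higher in each comparison. The lymphocyte median was 0.26 to 0.55 on VEGF arrays, -0.068 to 0.46 on MCAO arrays and -0.16 to 0.25 on sham arrays, so MCAO and sham overlapped. The median of 6 microglia markers was 0.33 to 1.31 on VEGF arrays, 0.16 to 0.56 on MCAO arrays and -0.10 to 0.08 on sham arrays, with 1 called lower in each comparison. The markers with some arrays near background, left out of these medians, were Cxcr2 (well above background on 6 of the 9 arrays), Ccr2 (7), Cd163 (5), Msr1 (8) and Ngp (8). The calls of Ccr2, Msr1 and Cxcr2 thus rest on genes not measured well on every array. Of the monocyte and macrophage markers measured on all 9 arrays only Ms4a6d passed. Ms4a7 and Mrc1 did not pass against sham in VEGF or MCAO (limma, adjusted p 0.133 to 0.622). The part of these cells in the levels of the 10 genes was not tested.

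Genes whose pattern over the 9 arrays was most like that of a member were ranked by the mean absolute difference in log2 level after the sham mean was set to 0. Nearest to Tnf were Gpr84 (0.344), a receptor of myeloid cells, Il1r2 (0.369), a decoy receptor for interleukin-1, and Pilrb1 (0.461). Nearest to Tnfrsf12a were Cd72 (0.288), Ifi204 (0.424) and Cst7 (0.441), and nearest to Fas were Smim3 (0.182), Samsn1 (0.183) and Adm (0.197), which encodes adrenomedullin. Nearest to Tnfsf12 were Cacng6 (0.057), Irak1bp1 (0.064) and Fndc4 (0.064). Nearest to Ngfr were Tmem184a (0.219), Cfap126 (0.231), which encodes a protein of motile cilia, and Efhb (0.267). These are descriptions over 9 arrays, and no test belongs to them.

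Of 31 tested genes among the nearest 2 on either side of each member, other members left out, 1 was called in VEGF against sham and 2 in MCAO against sham. Of all genes tested, 2.43% and 2.81% were called, so these few calls say little about the neighbours as a set. Ch25h, a cholesterol hydroxylase gene downstream of Fas, was higher by 5.42 in VEGF and 5.33 in MCAO (adjusted p = 0.000208 and 0.000212). Cd9, near Tnfrsf1a, was higher by 2.26 in MCAO (adjusted p = 0.0383) and had 2.05 in VEGF (adjusted p = 0.0598). Tnf lies on chromosome 17 between Lta, the gene of lymphotoxin alpha, and Ltb, the gene of lymphotoxin beta. Lta differed by 0.73 in VEGF against sham and 0.43 in MCAO against sham, and Ltb by 1.39 and 1.01, and none of these passed (adjusted p 0.112 to 0.463). Tnfrsf1a and Ltbr lie 35838 bases apart on chromosome 6 with Scnn1a, a sodium channel subunit, between them. Both receptors rose, whereas Scnn1a differed by -0.012 in VEGF against sham and 0.30 in MCAO against sham (adjusted p 0.991 and 0.785). These neighbours were picked by position after the member values were known.

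Other genes of the pathway were read from 9 lists with 126 tested genes. Among 12 other TNF family ligands, 3 were higher and 1 lower in VEGF against sham, and 2 were higher and 1 lower in MCAO against sham. Tnfsf9, the 4-1BB ligand, was higher by 2.96 and 3.18 log2 units in VEGF and MCAO. Tnfsf8, the ligand of CD30, was at least 2.93-fold higher in VEGF than in sham and at least 5.34-fold higher in MCAO than in sham, as no sham array had it well above background. Tnfsf14, which binds Ltbr, passed in VEGF against sham at 1.78 (adjusted p = 0.0428) and had 1.65 in MCAO against sham (adjusted p = 0.0515), with 0.13 between VEGF and MCAO (not passed). Eda, ectodysplasin, fell by 1.09 in VEGF and by 1.34 in MCAO. Among 19 other receptors of the family, 1 was higher and 1 lower in each comparison. Tnfrsf18, well above background on 2 of the 3 sham arrays, was higher by 3.03 in VEGF and 2.60 in MCAO. Tnfrsf17 was at least 3.67-fold lower in VEGF and at least 3.68-fold lower in MCAO. It was well above background on 3 of 3 sham arrays but on 0 of 3 VEGF and 0 of 3 MCAO arrays, so it entered the test only through sham. Without VEGF array 1 and MCAO array 1, 5 ligands were higher and 3 lower in VEGF and 6 higher and 1 lower in MCAO. Of the receptors 4 were then higher and 3 lower in VEGF and 5 higher and 2 lower in MCAO. The share of all genes called without these arrays was 20% in VEGF against sham and 22.8% in MCAO against sham.

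Lists for TNF release, receptor adaptors, killing, brakes and partners of Ngfr held at most 2 calls each, where 2.07% of all genes were called higher in VEGF against sham and 2.28% in MCAO against sham. Of 6 genes that control release of TNF or the life of its mRNA, 2 were higher in each comparison: Zfp36, which destabilises Tnf mRNA, was higher by 3.90 in VEGF and 3.95 in MCAO. Rhbdf1 had 1.54 in VEGF (adjusted p = 0.0476) and 1.15 in MCAO (adjusted p = 0.0981). Rhbdf2, a partner of the sheddase of TNF, had 2.76 in VEGF (adjusted p = 0.0634) and 2.93 in MCAO (adjusted p = 0.0483). Of 22 receptor adaptors and ubiquitin enzymes only Birc3 was higher, by 2.85 in VEGF and 3.02 in MCAO. Of 14 genes that carry out death receptor killing only Ripk3, the kinase of necroptosis, was higher, by 3.58 in VEGF and 3.66 in MCAO. Of 12 brakes like Tnfaip3, 0 passed in VEGF against sham (limma, with 2 at an unadjusted p under 0.05) and 1, Otud7b, passed in MCAO against sham (1.68, adjusted p = 0.0252). The deposited signal of the Otud7b probe differs from the signal recomputed from its own columns, which gave 2.32 (adjusted p = 0.0191). Of 14 neurotrophins and partners of Ngfr 0 passed in either direction (limma, with 2 lower in VEGF and 3 lower in MCAO at an unadjusted p under 0.05), with medians of -0.60 in VEGF and -0.79 in MCAO against sham. Without VEGF array 1 and MCAO array 1, 20% of all genes were called in VEGF against sham (8.76% higher and 11.3% lower). In MCAO against sham 22.8% were called (9.79% higher and 13% lower). Of the release genes 4 were then higher in each comparison and 0 lower. Of the adaptors 4 were then higher in each comparison, with 0 lower in VEGF and 3 lower in MCAO. Of the killing genes 5 were higher and 0 lower in VEGF, and 7 were higher and 1 lower in MCAO. Of the brakes 1 was higher in VEGF and 3 in MCAO, with 0 lower. Of the partners of Ngfr 1 was lower in VEGF and 3 in MCAO, with 0 higher.

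NF-kappaB genes and TNF-induced genes held 14 of the 24 calls of the 9 lists in each comparison with sham. The 9 lists held 126 tested genes, 11 and 16 of them in these 2 lists. The lists were chosen with earlier results of these data known, so this share is a description and no test of the lists. Without VEGF array 1 and MCAO array 1 these 2 lists held 20 of 50 in VEGF and 20 of 59 in MCAO, where 20% and 22.8% of all genes were called. The calls with all arrays include Rel, Sele, Cxcl2 and Il6. These were dim on sham arrays and passed the filter on dim probes only through the ischaemic groups. Tnfsf8 and Tnfrsf18 of the other lists did so too. Tnfrsf17, called lower, passed that filter only through the sham group. Of 11 NF-kappaB subunits and inhibitors, 4 were higher in each comparison and all 11 differences were above 0, with medians of 1.37 in VEGF and 1.41 in MCAO (1.26 and 1.27 with Rel at its bound). Bcl3, a nuclear NF-kappaB cofactor, was higher by 5.55 ± 0.32 in VEGF (adjusted p = 0.000208) and 5.60 ± 0.32 in MCAO (adjusted p = 0.000212). Nfkb2, the precursor of the non-canonical subunit, was higher by 2.96 and 2.86, and Rel, well above background on 0 of 3 sham arrays, by at least 1.33-fold and 1.26-fold. Of the 10 NF-kappaB genes other than Rel, 3 were called higher in each comparison. Without VEGF array 1 and MCAO array 1, 9 of the 11 were higher in each comparison. Of 16 genes listed as induced by TNF, 10 were higher in each comparison and all 16 differences were above 0, with medians of 3.17 in VEGF and 3.21 in MCAO, beside the medians of all genes given above. Of the called genes, Sele and Cxcl2 were well above background on 0 of 3 sham arrays and Il6 on 1, so they passed the filter on dim probes only through the ischaemic groups. With Sele and Cxcl2 at their bounds the medians were 2.53 in VEGF and 2.82 in MCAO, and 7 of the 13 other genes were called higher in each comparison. Ccl2, a chemokine that draws monocytes, was higher by 8.72 ± 0.63 in VEGF (adjusted p = 0.000537) and 8.49 ± 0.63 in MCAO (adjusted p = 0.00061). Tnfaip2 was higher by 4.89 and 4.47, and Pdlim4 by 2.19 and 1.97. The calls of Bcl3, Ccl2 and Pdlim4 held in 9 of 9 fits with 1 array left out in both comparisons, whereas those of Eda in VEGF and Rhbdf2 in MCAO held in 1 of 9. In VEGF against MCAO 0 of the 126 genes passed (limma, with 1 higher and 1 lower at an unadjusted p under 0.05).

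**Figure D5:**
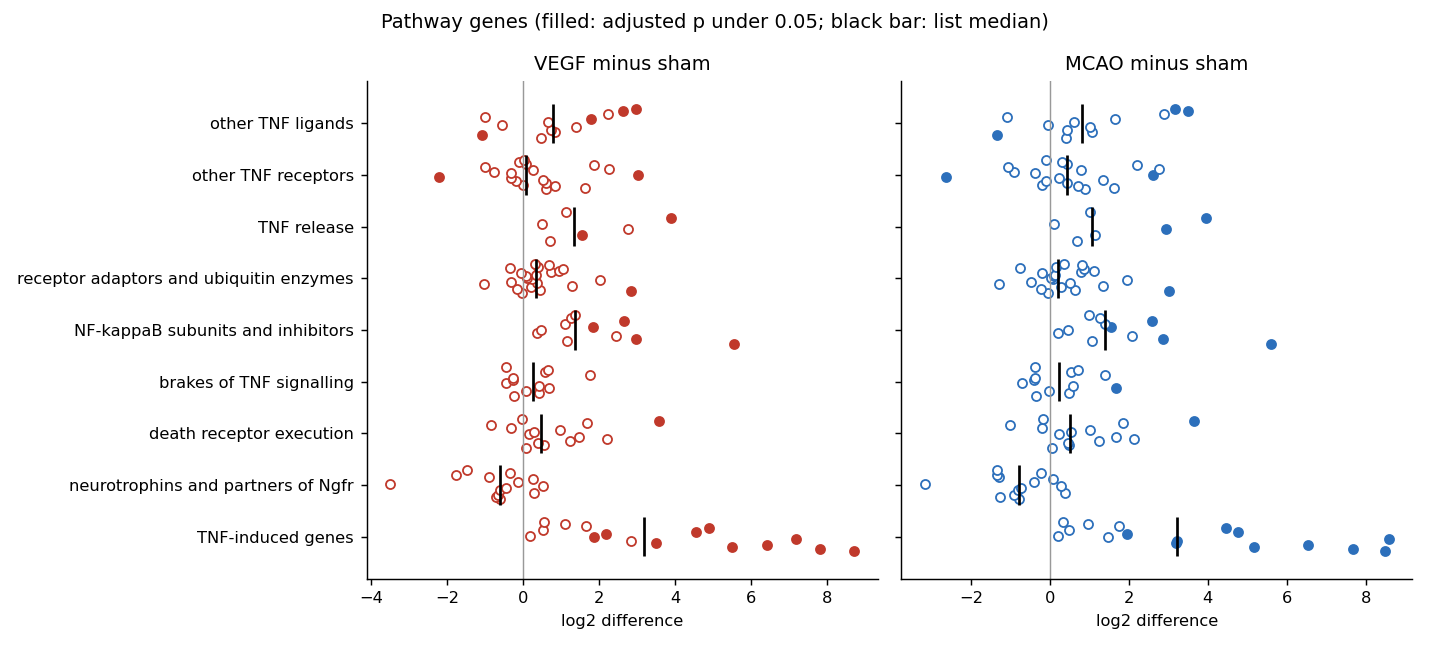
Each point is 1 gene of 9 pathway lists, placed by its log2 difference in VEGF minus sham and in MCAO minus sham, filled where the adjusted p is under 0.05, with a black bar at the list median. TNF-induced genes reach past 8 log2 units with 10 of 16 filled in each panel, and the neurotrophin list has 0 filled points.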

How the data were processed

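The deposited scanner files hold intensity values; per the file headers, Agilent Feature Extraction 10.7.1.1 subtracted background and divided by a detrending factor, deposited per spot as a ratio, to give the processed signal in 3 significant digits. MCAO array 1 lacks the detrending step per its header; applying it everywhere moved member differences by at most 0.0771. The authors' deposited value table is taken as log2 from its match to the scanner values; its normalization is not given in the sources used here, and it served as an alternative.

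Here log2 processed signals were set relative to each array's 75th percentile. Repeat spots were averaged without outlier spots, which left 43920 of 55681 non-control probes well above background on all 3 arrays of a group. The brightest probe, that of highest mean over the 9 arrays, stood for a gene. Symbols came from RefSeq (GRCm38.p6), matched without versions, for 26576 probes. All 9 arrays entered 1 fit with limma 3.58.1 in R 4.3.3 without covariates, with Benjamini-Hochberg adjustment at 0.05. The number of arrays limits the precision (8.48 degrees of freedom). The fit was tested on simulated data.

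"At least" folds set the bright group's mean against the lowest signal well above background on each array, or the dim probe's own where higher; 14 probes whose deposited signal differs from its own columns were left out of that lowest signal, a choice made after seeing the data. No member probe is among them. Correlations of same-numbered deviations were 0.224 to 0.587 between VEGF and MCAO (3 pairs), beside -0.56 to 0.39 for different numbers. Since each same-numbered value is over 0.1, numbers were taken to pair those groups, and the replicate block changed no member's call there. The pairing is not established for arrays numbered 2. Their value of 0.224 was below that of VEGF array 2 with MCAO array 3 (0.234) and of VEGF array 3 with MCAO array 2 (0.392). VEGF array 2 and MCAO array 2 also came from mice of different ages. Deviations within a group sum to 0, so the correlations depend on each other. Genes of the lists were named by p: up to 3 called genes of smallest p per list, direction and comparison with sham. Members and lists were chosen with earlier results of these data known.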

Additional observations from a re-analysis of the deposited data

How the results depend on the processing

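Over 11 alternatives and 9 fits without 1 array, the calls of Tnf and of the brighter Tnfrsf1a probe against sham were kept throughout (the other Tnfrsf1a probe, tested on its own, did not pass, at 1.97 in VEGF and 1.59 in MCAO), with log2 differences of 2.69 to 4.60 for Tnf in VEGF, 3.14 to 5.12 for Tnf in MCAO, 2.52 to 3.25 for Tnfrsf1a in VEGF and 2.23 to 3.06 for Tnfrsf1a in MCAO, whose lowest values are those of the mean of both probes. Of the 10 members, 2 to 8 were called in VEGF against sham and 3 to 7 in MCAO against sham without 1 array, the fewest without sham arrays. Genes called numbered 748 in VEGF against sham, with 440 under normexp, 6175 (43.7% higher) without VEGF array 1 and MCAO array 1, and 156 to 3270 without 1 array. They numbered 868 in MCAO against sham (81.0% higher), with 1594 with age as a covariate, 558 under normexp, 1788 with only the compared groups, 7028 (42.9% higher) without both arrays numbered 1, and 190 to 2583 without 1 array. In VEGF against MCAO 2 were called, with 0 under normexp, 1 with only these groups, 4 under quantile normalization, 0 with recomputed signals and 1 to 3 without 1 array. With the replicate block, 6 members and 946 genes were called in VEGF against sham, 7 and 1229 in MCAO against sham (Tnfrsf10b added, adjusted p = 0.0478), and 0 and 2 in VEGF against MCAO; same-numbered deviations correlated at -0.107 to 0.151 with sham, so numbers do not pair with sham. Tnfrsf10b also passed in MCAO with age (adjusted p = 0.048) and with only the compared groups (0.0272). Differences between VEGF and MCAO changed sign without both arrays numbered 1 for Fas (-0.061), and so did Ngfr in VEGF against sham (-0.0085). Without 1 array, VEGF minus MCAO ran from -1.04 to -0.18 for Tnf, -1.24 to -0.42 for Tnfrsf12a, -0.14 to 0.52 for Tnfrsf1a, -0.85 to 0.14 for Tnfrsf1b, -0.030 to 0.10 for Tnfsf12, -0.19 to 0.32 for Fas, -0.80 to 0.36 for Tnfrsf10b, -0.59 to 0.22 for Ltbr, -0.38 to 0.50 for Tnfaip3 and -0.88 to 0.26 for Ngfr, and Ngfr in VEGF minus sham from -0.0085 to 1.13. None of these sign changes involves a called value, and the causes were not tested. Signals near background limit Tnf and Tnfrsf1b on sham arrays.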
